A study of Mus musculus with 8 samples.

Results

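The piRNA pathway of the mouse testis was followed through 10 genes in 8 RNA-seq libraries of whole testis. The genes encode the PIWI proteins Piwil1, Piwil2 and Piwil4 and the biogenesis factors Ddx4, Mael, Mov10l1, Asz1, Tdrd1, Tdrd9 and Pld6. They were found by symbol among the 55421 Ensembl gene identifiers of each library, and all 10 were present and passed the filter on low counts that left 26414 genes to test. The libraries came from wild-type (WT) male mice in 4 groups of 2. The LPS+DHEA+Nb group received lipopolysaccharide (LPS), an inflammatory molecule of the bacterial outer membrane, and 6 h later dehydroepiandrosterone (DHEA), an androgen precursor, together with Nb23-bi, whose nature the labels do not state. The LPS+DHEA group received LPS and DHEA 6 h later, the LPS group LPS alone, and the CTRL group phosphate-buffered saline as vehicle. All injections were intraperitoneal. Doses, age, strain and the time of tissue collection were not given in the sources used here. Nothing there says that replicate libraries came from different mice, and p-values measure only the spread between libraries, which may be technical.

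PIWI-interacting RNAs (piRNAs) are short germline RNAs that guide PIWI proteins to transposon and other transcripts. Long single-stranded precursors are handed to the mitochondrial surface, cut there, loaded into PIWI proteins and trimmed, and many of these steps take place in germ cell granules called nuage or chromatoid bodies. In mice, loss of pathway genes releases transposons or arrests male germ cell development. Most of the pathway is expressed in spermatocytes and spermatids, while Piwil4 acts mainly in fetal and newborn germ cells.

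No member passed an adjusted p under 0.05 in any comparison with edgeR, DESeq2 or limma-voom, and each gene except the barely detected Piwil4 stayed within a 1.34-fold range from its lowest to its highest library. The summed level of the 10 genes was 2871 and 2792 CPM (CPM scales counts to a common library total, here after TMM normalization) in LPS+DHEA+Nb, 2839 and 2844 CPM in LPS+DHEA, 2877 and 2749 CPM in LPS and 2793 and 2758 CPM in CTRL. Both LPS+DHEA libraries lay above both CTRL libraries in this sum, every other pair of groups overlapped, and the highest library exceeded the lowest 1.05-fold. The difference between LPS+DHEA and CTRL was not tested, and the share of all genes without overlap between them was not counted. In whole testis, fewer cells of a type and less RNA per cell cannot be told apart.

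Promoter windows from 250 bases before to 50 bases after a transcription start were taken from RefSeq (GRCm38.p6). They matched 9 of the 10 members by symbol, with 13 windows; Piwil2 had no entry. Each window was searched on both strands for the E-box core CACGTG, a site of many basic helix-loop-helix factors, and for the MYB cores CAACTG and CAACGG, also with T as their opening letter. These motifs were chosen because A-MYB (Mybl1) and the basic helix-loop-helix factor Tcfl5 are known to drive pathway genes in spermatocytes. The E-box core was present in a window of 7 of the 9 members (77.8%), against 9.96% of the 16070 tested genes with a window and 12% of the 7478 with a window of at least 60% GC. It was absent from the windows of Piwil4 and Asz1, the members with the lowest levels. Counted by window, the core was in 8 of 13 windows (61.5%), against 8.56% of 20063 windows of tested genes, and 2 of those 8 are overlapping windows of Tdrd1 that hold the same match. A MYB core was present in 3 of the 9 members (33.3%), Piwil1, Mov10l1 and Pld6, against 30.5% of tested genes. No matches of the 2 kinds overlapped. The windows of Piwil1 and Tdrd9, with 2 E-box cores each, of Mael, the member with the highest level, and of Piwil4, the member with the lowest, are printed 5′ to 3′ with both kinds of core in capitals, a core of the opposite strand showing as its reverse complement. The RefSeq start used for Piwil1 lies inside the longer gene span given by GENCODE.
Piwil1, chr5:128735996-128736295 on the plus strand: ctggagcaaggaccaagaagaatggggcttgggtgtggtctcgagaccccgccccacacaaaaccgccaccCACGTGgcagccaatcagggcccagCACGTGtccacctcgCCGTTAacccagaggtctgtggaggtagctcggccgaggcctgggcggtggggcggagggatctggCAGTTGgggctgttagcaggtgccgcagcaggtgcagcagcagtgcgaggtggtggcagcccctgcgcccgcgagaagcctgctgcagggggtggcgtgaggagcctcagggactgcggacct
Tdrd9, chr12:111971309-111971608 on the plus strand: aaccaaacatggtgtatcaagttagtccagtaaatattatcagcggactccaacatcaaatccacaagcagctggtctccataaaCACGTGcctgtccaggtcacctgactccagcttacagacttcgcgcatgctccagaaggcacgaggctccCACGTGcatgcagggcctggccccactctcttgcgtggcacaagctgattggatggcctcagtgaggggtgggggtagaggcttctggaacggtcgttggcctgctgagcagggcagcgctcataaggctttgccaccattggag
Mael, chr1:166238695-166238994 on the minus strand: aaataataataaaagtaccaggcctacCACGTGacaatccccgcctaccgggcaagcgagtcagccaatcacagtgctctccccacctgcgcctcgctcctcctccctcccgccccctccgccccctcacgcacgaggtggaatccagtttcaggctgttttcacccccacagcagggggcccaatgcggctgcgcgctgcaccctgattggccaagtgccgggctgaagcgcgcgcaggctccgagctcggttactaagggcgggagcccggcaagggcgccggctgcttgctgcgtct
Piwil4, chr9:14740623-14740922 on the minus strand: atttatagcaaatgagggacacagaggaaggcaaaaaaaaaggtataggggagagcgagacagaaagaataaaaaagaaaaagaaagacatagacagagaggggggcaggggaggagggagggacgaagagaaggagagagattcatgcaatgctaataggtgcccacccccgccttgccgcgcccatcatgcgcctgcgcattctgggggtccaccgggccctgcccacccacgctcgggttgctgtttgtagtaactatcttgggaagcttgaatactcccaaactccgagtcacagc

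In Piwil1 the E-box cores began at positions -179 and -154 from the start, and the MYB cores at -139 and -73. In Tdrd9 the E-box cores began at -165 and -95, and in Mael the single core began at -223. The other E-box cores lay near the start in Ddx4 (-29), Tdrd1 (-11 in its upstream window) and 1 window of Pld6 (-33), and far from it in Mov10l1 (-246). The window of Tdrd9 had 55.7% GC, that of Asz1 54.3%, the printed one of Piwil4 52.7%, and those of Mael and Piwil1 65% and 67.7%. A match describes letters in the window and is no evidence of binding. Among 16 of the other pathway genes with a window, 4 held the E-box core (25%) and 6 a MYB core (37.5%).

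**Figure D1:**
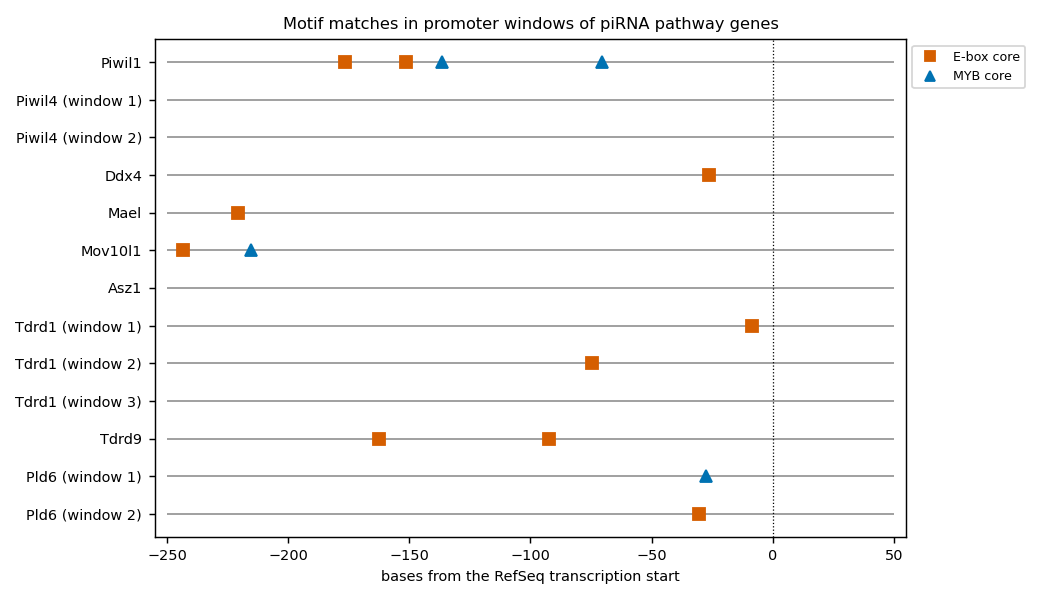
Positions of the E-box core (squares) and the MYB cores (triangles) in the 13 promoter windows of 9 members, in bases from the RefSeq transcription start (dotted line). E-box cores occur in windows of 7 of the 9 genes, and the windows of Piwil4 and Asz1 hold neither motif.

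To compare genes with each other, levels were divided by the length of the merged exons of each gene and scaled to TPM, a transcript measure with the same total in every library. Mael, which encodes a nuage protein needed for transposon silencing, was the most abundant member, with a median of 1809.7 TPM over the 8 libraries (1767 to 1847 TPM). Ddx4, the mouse vasa RNA helicase of nuage, followed at a median of 451 TPM (426 to 479 TPM), and Piwil1 at 273 TPM (217 to 302 TPM). These 3 genes were separated from each other and from the rest in all 8 libraries. Pld6 (median 96.3 TPM), Piwil2 (89.7 TPM), Tdrd1 (79.9 TPM) and Tdrd9 (72.8 TPM) came next, and the range of each overlapped that of its neighbour. Mov10l1 (55.4 TPM) and Asz1 (24 TPM) lay below them without overlap. Piwil4 was near the limit of detection, at a median of 0.23 TPM (0.0965 to 0.306 TPM), below Asz1 in every library.

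**Figure D2:**
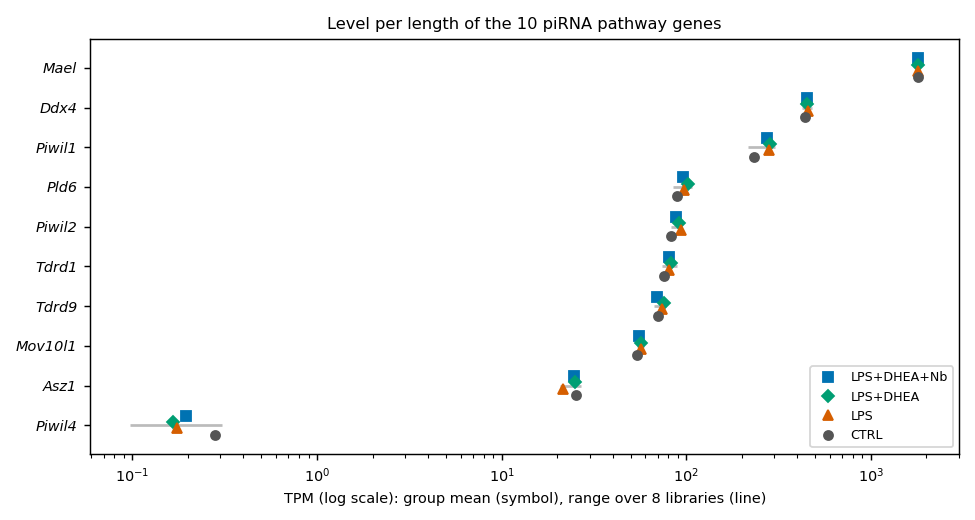
Level per length in TPM (log scale) of the 10 members, with a symbol for each group mean and a line for the range over the 8 libraries. The order runs from Mael at 1809.7 TPM to Piwil4 at 0.23 TPM, and within each gene the 4 groups lie close together compared with the distances between most genes.

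The test over all 4 groups asked whether a gene differed between any of them. It called 0 of the 10 members with edgeR, as with DESeq2 and limma-voom, where edgeR called 0.239% of all genes tested. At an unadjusted p under 0.05 edgeR gave 0 members, where 5.4% of all genes fell under it. DESeq2 gave 0 members and limma-voom 1, and their shares over all genes are not given here. Piwil1 had the smallest adjusted p of the members, 0.946 with edgeR. The other pathway genes likewise had 0 of 24 called with each tool.

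Of the PIWI genes, Piwil1 (GRCm38 chr5:128702524-128755474, plus strand) encodes MIWI, the PIWI protein of pachytene spermatocytes and round spermatids. It had 477 and 430.2 CPM in LPS+DHEA+Nb, 489 and 442 CPM in LPS+DHEA, 463 and 448 CPM in LPS, and 367 and 422 CPM in CTRL. All 6 libraries from LPS-injected mice lay above both CTRL libraries, and the 3 LPS-exposed groups overlapped among themselves. The log2 fold change in LPS versus CTRL was 0.21 (SE 0.08, 95% interval 0.03 to 0.39, adjusted p = 0.629, edgeR), so the difference did not pass the threshold over all genes. A test of the 3 LPS-exposed groups together against CTRL, added after these values were seen, gave 0.22 (95% interval 0.06 to 0.37, unadjusted p = 0.00929, adjusted p = 0.548, edgeR). The test was chosen with these values known, so its unadjusted p and interval are no independent evidence. Over its alternatives the adjusted p ranged from 0.336 to 0.928. It called 0 of the 10 members with edgeR, DESeq2 and limma-voom, where edgeR called 0.208% of all genes. At an unadjusted p under 0.05 edgeR gave 1 member, Piwil1, where 6.2% of all genes fell under it.

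Piwil2 (chr14:70372477-70429383, minus strand) encodes MILI, which acts from fetal germ cells to round spermatids. It had 182 and 175 CPM in LPS+DHEA+Nb, 177 and 185 CPM in LPS+DHEA, 187 and 182 CPM in LPS, and 169.7 and 170.1 CPM in CTRL. Here too the 6 LPS-exposed libraries lay above both CTRL libraries, by a small margin. The log2 fold change in LPS versus CTRL was 0.12 (SE 0.06, 95% interval -0.02 to 0.26, adjusted p = 0.767, edgeR). Of all genes tested, 4.44% had the 6 LPS-exposed libraries above both CTRL libraries and 4.22% had them below, and among the 10 members these were Piwil1 and Piwil2 above and Piwil4 below.

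Piwil4 (chr9:14696230-14740733, minus strand) encodes MIWI2, the nuclear PIWI protein that directs DNA methylation of transposons in fetal male germ cells. It had 19 and 32 counts in LPS+DHEA+Nb, 30 and 12 in LPS+DHEA, 16 and 28 in LPS, and 40 and 34 in CTRL. The CTRL libraries were highest, and the counts of the other groups overlapped. The log2 fold change in LPS versus CTRL was -0.74, with a wide 95% interval of -2.19 to 0.71 (adjusted p = 0.902, edgeR). With counts this low the interval includes no difference. An antisense gene, Gm10706, shares 137 exonic bases with Piwil4 and had 0 to 8 counts; no source used here gives the strand setting of the counting, so reads of these genes cannot be told apart.

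**Figure D3:**
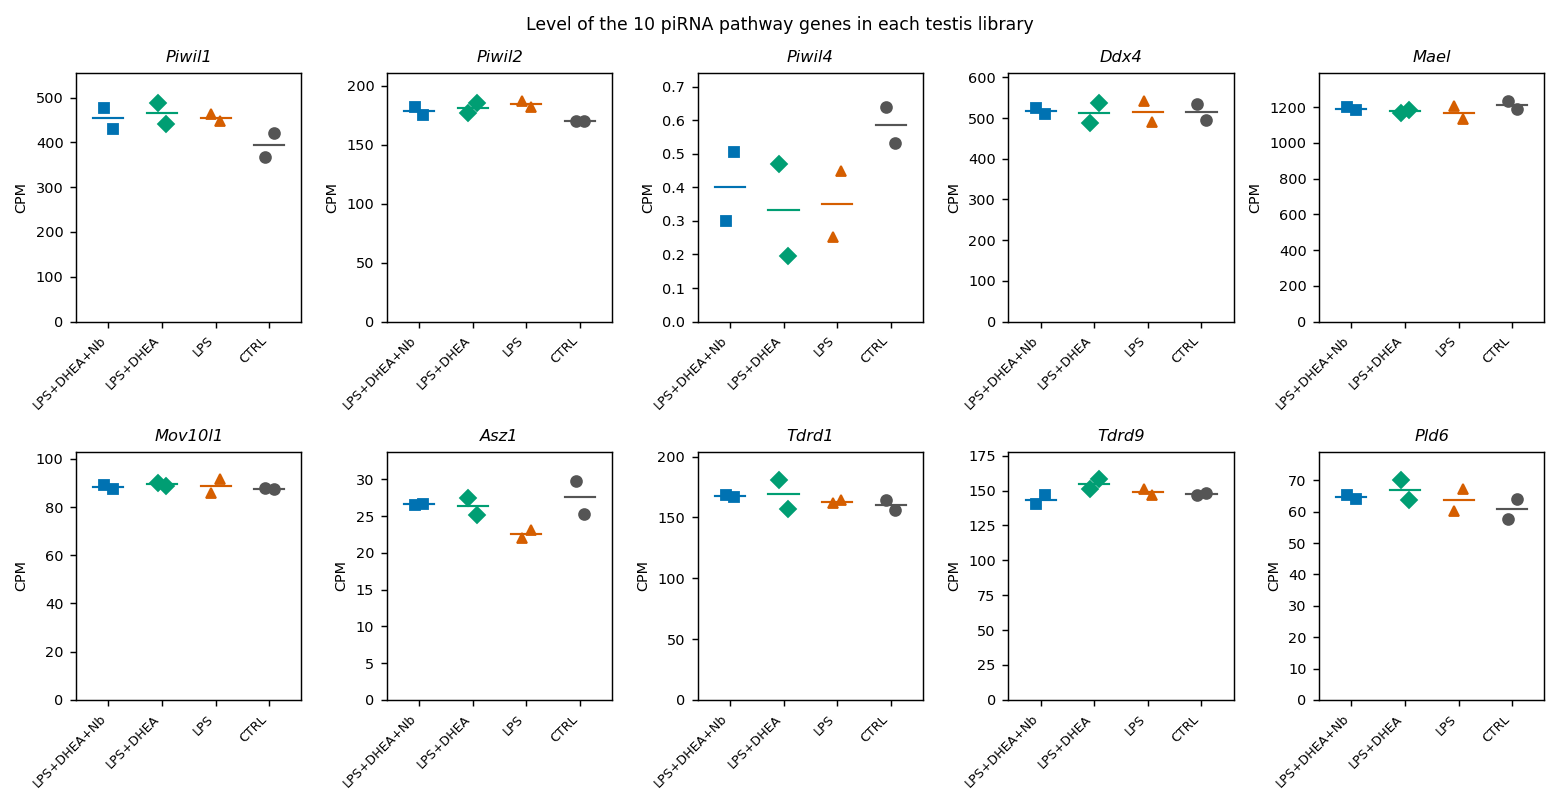
CPM of each member in the 8 libraries (points) with the group mean (line) and y axes that start at 0. Piwil1 sits between 430.2 and 489 CPM in the 6 LPS-exposed libraries and at 367 and 422 CPM in CTRL, while Ddx4, Mael and Mov10l1 overlap between the LPS and CTRL groups.

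Among the RNA helicases, Ddx4 (chr13:112598333-112652475, minus strand) had 525 and 509.9 CPM in LPS+DHEA+Nb, 488 and 538 CPM in LPS+DHEA, 542 and 489.8 CPM in LPS, and 534 and 494 CPM in CTRL. Libraries of 1 group differed as much as the groups did, and the log2 fold change in LPS versus CTRL was 0.01 (95% interval -0.16 to 0.17, adjusted p = 0.996, edgeR). Mov10l1 (chr15:88982909-89055152, plus strand), which binds piRNA precursors and feeds them to cleavage, had 89 and 87.6 CPM in LPS+DHEA+Nb, 89.9 and 88.9 CPM in LPS+DHEA, 85.8 and 91.7 CPM in LPS, and 87.9 and 87.3 CPM in CTRL. It varied least of the 10 genes, with a coefficient of variation of 2.04% over the 8 libraries, where the 7501 tested genes with a mean of at least 20 CPM had a median of 6.61%. Tdrd9 (chr12:111971559-112068854, plus strand), a helicase with a Tudor domain that works with MIWI2, had 140.1 and 147 CPM in LPS+DHEA+Nb, 151 and 158 CPM in LPS+DHEA, 151 and 147 CPM in LPS, and 147 and 148 CPM in CTRL. Its LPS+DHEA+Nb libraries lay below the LPS+DHEA libraries, with a log2 fold change of -0.11 (95% interval -0.25 to 0.04, adjusted p = 1, edgeR).

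Of the scaffold, Tudor and nuclease genes, Asz1 varied most over the 8 libraries, with a coefficient of variation of 9.43%. Asz1 (chr6:18050964-18109061, minus strand) encodes GASZ, which anchors the pathway to the outer mitochondrial membrane. It had 26.5 and 26.7 CPM in LPS+DHEA+Nb, 27.5 and 25.2 CPM in LPS+DHEA, 22.1 and 23.1 CPM in LPS, and 29.8 and 25.3 CPM in CTRL. Both LPS libraries lay below the 6 others, and the share of all genes with this pattern was not counted. The log2 fold change was -0.28 in LPS versus CTRL (SE 0.11, 95% interval -0.53 to -0.04, unadjusted p = 0.0274, adjusted p = 0.62, edgeR). It was 0.22 in LPS+DHEA versus LPS (95% interval -0.02 to 0.47, adjusted p = 1, edgeR) and 0.24 in LPS+DHEA+Nb versus LPS (95% interval -0.01 to 0.48, adjusted p = 0.776, edgeR). These 3 comparisons share the LPS libraries, so the opposite signs are not independent, and none passed.

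Mael (chr1:166201201-166238747, minus strand) had 1199 and 1184 CPM in LPS+DHEA+Nb, 1166 and 1185 CPM in LPS+DHEA, 1203 and 1134 CPM in LPS, and 1235 and 1191 CPM in CTRL. With 70921 to 77284 counts per library it was the deepest measured member, and its log2 fold change in LPS versus CTRL of -0.05 had a 95% interval of -0.17 to 0.06 (adjusted p = 0.918, edgeR). Tdrd1 (chr19:56826209-56870012, plus strand), a Tudor protein that binds methylated arginines of MILI, had 168 and 167 CPM in LPS+DHEA+Nb, 181 and 157 CPM in LPS+DHEA, 162 and 164 CPM in LPS, and 164 and 156 CPM in CTRL. The LPS+DHEA libraries spanned all the others except the lower CTRL library. Pld6 (chr11:59783897-59787645, minus strand), the mitochondrial nuclease known as zucchini in flies that cuts piRNA precursors, had 65.3 and 64.1 CPM in LPS+DHEA+Nb, 70.1 and 63.6 CPM in LPS+DHEA, 60.3 and 67.4 CPM in LPS, and 57.8 and 64.1 CPM in CTRL. Its LPS and CTRL libraries overlapped (log2 fold change 0.07, 95% interval -0.14 to 0.27, adjusted p = 0.945, edgeR).

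LPS was compared with CTRL to read the effect of LPS itself. The test called 0 of the 10 members with edgeR, DESeq2 and limma-voom, where edgeR called 0.295% of all genes, and 2 members, Piwil1 and Asz1, had an unadjusted p under 0.05, where 7.11% of all genes did. The median log2 fold change of the members was 0.02, against 0 over all genes tested. Leaving Piwil4 aside, the 95% intervals of the other 9 members ran from 0.69-fold to 1.31-fold. The libraries did not overlap for 2 members that were higher (Piwil1 and Piwil2) and 2 that were lower (Piwil4 and Asz1), where 18.9% of all genes were higher without overlap and 18.1% lower.

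LPS+DHEA was compared with LPS to read the effect of DHEA given after LPS. With edgeR, DESeq2 and limma-voom 0 members were called, where edgeR called 0.0189% of all genes. With edgeR 0 members had an unadjusted p under 0.05, where 3.51% of all genes did. The largest fold change in either direction was that of Asz1, and the intervals of the 9 members other than Piwil4 ran from 0.89-fold to 1.38-fold. Asz1 and Tdrd9 were higher without overlap, where 16.1% of all genes were, and 0 members were lower, where 15.7% were. The labels name an injection after LPS only where DHEA was given, so DHEA and the added injection cannot be told apart.

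Adding Nb23-bi was read in LPS+DHEA+Nb versus LPS+DHEA. LPS+DHEA+Nb was also compared with LPS, where DHEA, Nb23-bi and the added injection differ together and cannot be told apart. In LPS+DHEA+Nb versus LPS+DHEA, 0 members were called with each of the 3 tools, where edgeR called 0.0871% of all genes. With edgeR 0 members had an unadjusted p under 0.05, where 4.4% of all genes did. The intervals of the 9 members other than Piwil4 ran from 0.84-fold to 1.2-fold. Tdrd9 was lower without overlap, where 17.1% of all genes were, and 0 members were higher, where 15.7% were. In LPS+DHEA+Nb versus LPS, 0 members were called with each tool, where edgeR called 0.17% of all genes. With edgeR 0 members had an unadjusted p under 0.05, where 6.56% of all genes did. The intervals of the 9 ran from 0.87-fold to 1.4-fold. Asz1 and Tdrd1 were higher without overlap, where 18.1% of all genes were, and Piwil2 and Tdrd9 lower, where 18.6% were. A p above the threshold does not show that levels were equal, and the intervals give the sizes these libraries leave possible.

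**Figure D4:**
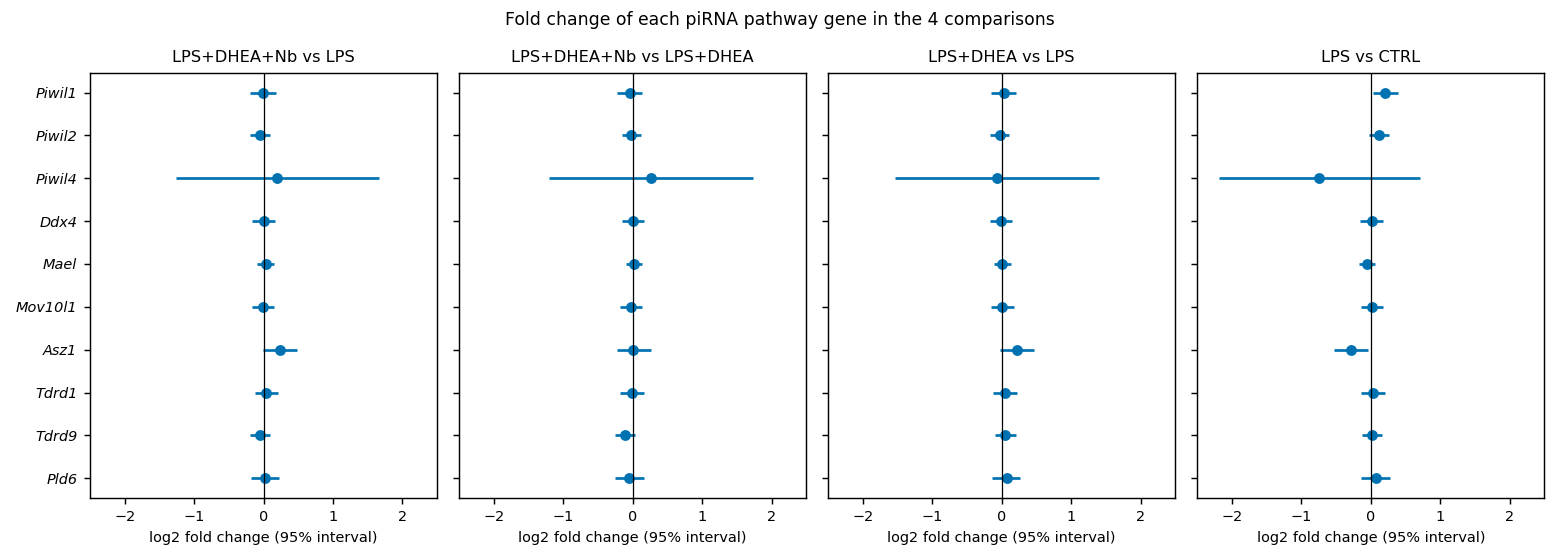
Log2 fold change of each member (point) with its 95% interval (line) in the 4 comparisons, from edgeR. The intervals of Piwil4 lie between -2.19 and 1.73, while those of the other 9 genes stay between -0.53 and 0.48.

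The other genes of the pathway were read from a list of 24 that covers Tudor proteins, piRNA trimming and methylation, transcription factors and nuclear silencing. None of the 24 passed in any of the 4 comparisons or in the test over all groups with edgeR, DESeq2 or limma-voom, where edgeR called between 0.0189% and 0.295% of all genes. At an unadjusted p under 0.05 edgeR gave 0 of the 24 in LPS versus CTRL (7.11% of all genes) and 0 in LPS+DHEA versus LPS (3.51% of all genes). It gave 1 in LPS+DHEA+Nb versus LPS+DHEA (4.4% of all genes), 2 in LPS+DHEA+Nb versus LPS (6.56% of all genes) and 3 in the test over all groups (5.4% of all genes). The 3 were Exd1, Tdrkh and Morc1. In LPS versus CTRL 15 of the 24 had a positive and 9 a negative fold change, with a median log2 fold change of 0.03. Tdrkh, a mitochondrial Tudor protein needed for trimming, had 34.6 and 32 CPM in LPS+DHEA+Nb, 38.4 and 37 CPM in LPS+DHEA, 32.4 and 35.1 CPM in LPS, and 31.4 and 28.4 CPM in CTRL (adjusted p = 0.899, edgeR). It was above both CTRL libraries in all 6 LPS-exposed libraries, as was Wdr77, a partner of the arginine methyltransferase Prmt5, where 4.44% of all genes were. Tcfl5 was below both, at 341 to 365 CPM in the LPS-exposed libraries and 373 and 372 CPM in CTRL, where 4.22% of all genes were (log2 fold change -0.09 in the 3 LPS-exposed groups versus CTRL, adjusted p = 0.887, edgeR). Wdr77 and Tcfl5 were named after their values were seen. Exd1, a partner of Tdrd12, had 24.6 and 32.5 CPM in LPS+DHEA+Nb, 21.9 and 24.3 CPM in LPS+DHEA, 21.6 and 20.7 CPM in LPS, and 24.1 and 24.2 CPM in CTRL (adjusted p = 0.886, edgeR). Morc1, a nuclear factor of transposon silencing, had 3.68 and 3.36 CPM in LPS+DHEA+Nb, 4.12 and 5.41 CPM in LPS+DHEA, 5.94 and 5.39 CPM in LPS, and 4.46 and 4.91 CPM in CTRL (adjusted p = 0.9, edgeR). Mybl1, which encodes A-MYB, had 63.1 and 58.3 CPM in LPS+DHEA+Nb, 56 and 61.6 CPM in LPS+DHEA, 61.5 and 55.8 CPM in LPS, and 64.3 and 58.7 CPM in CTRL, with overlap between all groups (adjusted p = 1, edgeR).

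**Figure D5:**
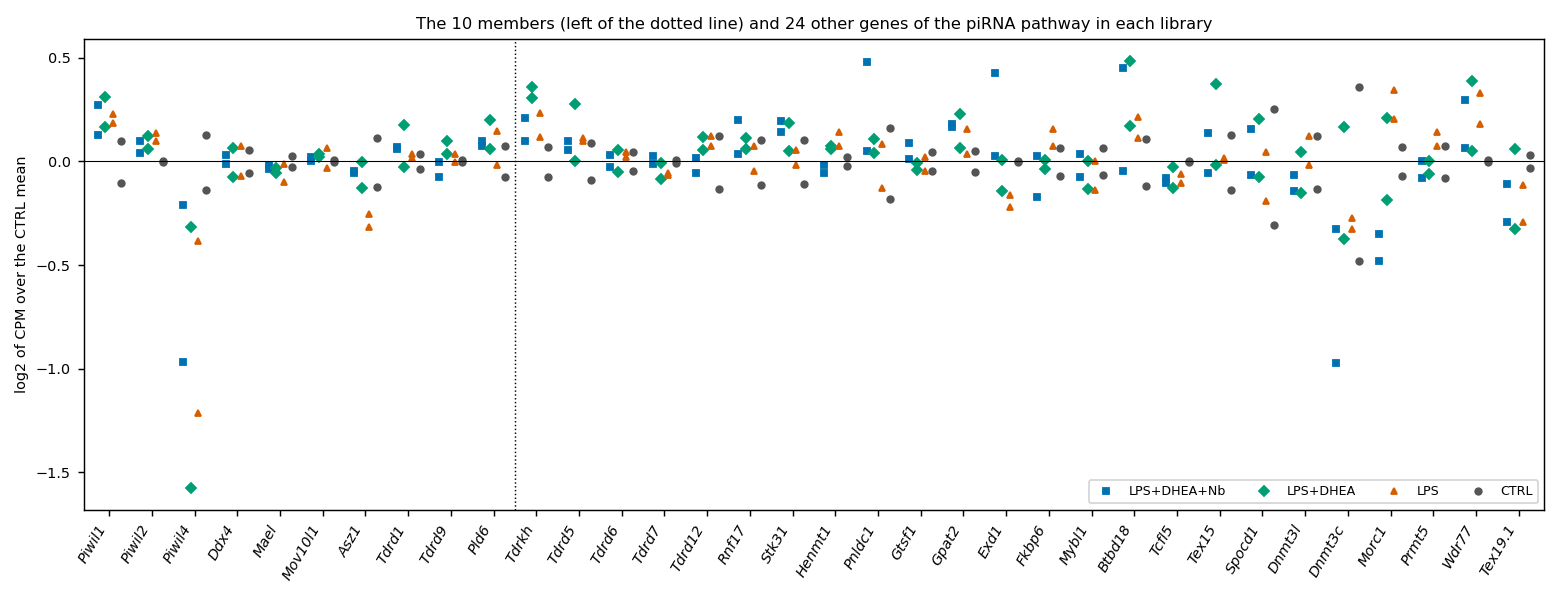
Level of the 10 members and the 24 other pathway genes in each library as log2 of CPM over the mean of the CTRL libraries, with a symbol for each group. Abundant genes such as Mael and Tdrd6 stay near 0, and the widest scatter belongs to genes of low level such as Piwil4 (0.196 to 0.639 CPM) and Dnmt3c (0.818 to 2.06 CPM).

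Marker lists of the germ cell stages and of other testis cells were read beside the members. The labels name testis and the extraction text speaks of islets; of 5 islet hormone genes 3 were at 0 in every library, and their sum did not exceed 0.157 CPM. Spermatid genes were abundant, with summed levels of 27329 and 27561 CPM in LPS+DHEA+Nb, 25657 and 27547 CPM in LPS+DHEA, 25919 and 26549 CPM in LPS, and 28831 and 29347 CPM in CTRL for 12 markers of elongating spermatids. All 12 had a negative fold change in LPS versus CTRL (median -0.15), of which edgeR called 0, where it called 0.295% of all genes, and DESeq2 and limma-voom 1 each. With edgeR 6 of the 12 had an unadjusted p under 0.05, where 7.11% of all genes did. Tnp1, a transition protein of sperm chromatin, had 1578 and 1675 CPM in LPS and 1973 and 1949 CPM in CTRL (log2 fold change -0.27, adjusted p = 0.116, edgeR). The 15 meiotic prophase markers, from the stage that uses Piwil1 and most of the pathway, summed to 2623 and 2517 CPM in LPS+DHEA+Nb, 2451 and 2524 CPM in LPS+DHEA, 2432 and 2332 CPM in LPS, and 2701 and 2370.4 CPM in CTRL. Of these 15, 5 had a positive and 10 a negative fold change in LPS versus CTRL (median -0.09), with 0 called by each of the 3 tools and 1 at an unadjusted p under 0.05 with edgeR. The 10 round spermatid markers summed to 1805 and 1569 CPM in LPS+DHEA+Nb, 1653 and 1618 CPM in LPS+DHEA, 1754 and 1526 CPM in LPS, and 1600.5 and 1514 CPM in CTRL. Both of these sums overlapped between LPS and CTRL. All 10 round spermatid markers had a positive fold change in LPS versus CTRL (median 0.06), of which 0 were called with each of the 3 tools and 0 had an unadjusted p under 0.05 with edgeR. The 15 spermatogonial markers summed to 888 to 1057 CPM over the libraries, with 0 called in LPS versus CTRL by edgeR and limma-voom and 1 by DESeq2. Dmrtb1 made up most of this sum, at 734 to 884 CPM. Of these 15, 8 had a positive and 7 a negative fold change in LPS versus CTRL (median 0.07). Dmrt1, a regulator of spermatogonia, had 25.1 and 23.2 CPM in LPS and 16.9 and 17.4 CPM in CTRL (log2 fold change 0.5, adjusted p = 0.136, edgeR). Of the somatic lists, Sertoli markers summed to 463 and 470.4 CPM in LPS and 446 and 447 CPM in CTRL. Macrophage markers overlapped in sum, at 64.8 and 69.7 CPM in LPS and 69.5 and 75.2 CPM in CTRL. Single macrophage genes went both ways, with 3 positive and 4 negative fold changes, from -1.35 for Cx3cr1 to 0.67 for Adgre1. With edgeR 3 of these 7 had an unadjusted p under 0.05, where 7.11% of all genes did. Leydig markers were lower in sum, at 699.5 and 677 CPM in LPS and 838 and 970.1 CPM in CTRL. Of the 6, 5 had a negative and 1, Star, a positive fold change in LPS versus CTRL (median -1.14). Insl3 made up most of the sum and overlapped, at 544 and 575 CPM in LPS and 552 and 597 CPM in CTRL. Myoid markers were higher, at 182 and 177 CPM in LPS and 105 and 95.4 CPM in CTRL, as were neutrophil markers in sum, at 7.18 and 5.42 CPM in LPS and 3.2 and 3.16 CPM in CTRL. Mpo made up most of the neutrophil sum in CTRL, at 3.2 and 3.08 CPM, and had 3.02 and 3.26 CPM in LPS. S100a8, S100a9 and Retnlg were higher in LPS, at no more than 2.44 CPM. Ly6g and Elane had 0 CPM in LPS and in CTRL. Endothelial markers were also higher, at 43.1 and 54.3 CPM in LPS and 40.8 and 34.4 CPM in CTRL. At an unadjusted p under 0.05 in LPS versus CTRL, edgeR gave 4 of 6 Leydig, 5 of 5 myoid and 1 of 15 spermatogonial markers. It gave 2 of 5 endothelial, 3 of 4 tested neutrophil and 1 of 9 Sertoli markers, where 7.11% of all genes fell under it. In LPS versus CTRL edgeR called 0 of 9 Sertoli, 0 of 7 macrophage, 0 of 6 Leydig and 0 of 5 endothelial markers. It called 1 of 5 myoid and 1 of 4 tested neutrophil markers, where it called 0.295% of all genes. The neutrophil marker called was S100a8. S100a8 and Retnlg had 0 counts in both CTRL libraries, so they passed the filter on low counts only through LPS-exposed libraries. Ly6g and Elane failed that filter. The neutrophil share therefore rests partly on markers kept for their level in LPS-exposed libraries. DESeq2 called 0 Sertoli, 2 macrophage, 3 Leydig, 2 endothelial, 2 myoid and 2 neutrophil markers, and limma-voom only 1 myoid marker. Over all genes in LPS versus CTRL, DESeq2 called 291, more than the 78 of edgeR. The count of limma-voom over all genes is not given here, so its calls in these lists have no such reference. Of the other stage genes with the smallest p, Stra8, Spo11, Meiob, Catsper4, Catsper3 and Spem1, the test over all groups gave adjusted p values of 0.641 to 1 (edgeR). The part of these shifts in the small differences of Piwil1, Piwil2 and Asz1 was not tested.

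Among 10854 genes outside these lists with a mean of at least 5 CPM, those whose log2 CPM most resembled the log2 summed level of the members over the 8 libraries were Kpna6 (Pearson r = 0.984), Ccdc27 (r = 0.976) and Rtf2 (r = 0.967). The sum is dominated by Mael and differs little between libraries, so these values describe small library differences, and the genes were searched for among many over 8 points that share groups and scaling.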

How the data were processed

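Libraries were made with a stranded kit (KAPA Stranded RNA-Seq), per the labels' protocols. HISAT, with no version, featureCounts 1.5.0-p3 and GRCm38 are named without role or order, per the submitters' processing notes. The deposited values are whole numbers per gene that were taken as estimated counts, because multiples of 4 made up 33.5% of the values between 1 and 40 and 25% of larger ones. That excess does not show how the values arose, and its cause was not tested. No source used here says more of how the authors made them. They needed no rounding. Totals were 61.3 to 64.5 M per library, with a count in 30142 to 30626 genes. Symbols matched 55154 of 55421 identifiers, and GENCODE M21 gave exon lengths for TPM.

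Genes were filtered with filterByExpr (minimum count 10, minimum total 15) and fitted with edgeR 4.0.16 (quasi-likelihood, robust, TMM factors 0.985 to 1.015, 4 group means over 8 libraries, common biological coefficient of variation 0.231, R 4.3.3). P-values were adjusted by Benjamini-Hochberg over 26414 genes. The SE is the size of the log2 fold change over the square root of F, and intervals use the moderated degrees of freedom. Every member is named; of the other pathway genes, those called or the 3 with the smallest p in the test over the groups, and Mybl1; of each stage list, its sum and up to 2 genes by the same p; and the 3 genes most correlated with the members' sum. The members and lists were chosen with earlier results of these data known. Alternatives were DESeq2 1.42.0, limma-voom (limma 3.58.1), other scalings and filters, only the groups compared, a replicate block, counts divided by 4, and each library left out. The fit was also run on simulated data, and the outcome is not reported here.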

Additional observations from a re-analysis of the deposited data

How the results depend on the processing

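No member and none of the 24 other pathway genes was called under any alternative, of which there were 17 for each of the 4 comparisons and 16 for the 3 LPS-exposed groups versus CTRL and the test over all groups. The lowest adjusted p of a member was 0.336. In the 9 alternatives that keep all libraries, no fold change of a member changed sign, and none other than those of Piwil4 moved by more than 0.03. Piwil4 could not be fitted with counts divided by 4 or with at least 1 CPM in 2 libraries, where it failed the filter. Signs were read from values rounded to 2 decimals, with no sign for 0. Leaving out 1 library turned the sign of 22 of the 50 fold changes. The value of Ddx4 that rounded to 0 ran from -0.07 to 0.08 in LPS+DHEA+Nb versus LPS and from -0.05 to 0.06 in the 3 LPS-exposed groups versus CTRL. In LPS versus CTRL the values without 1 library ran from -0.07 to 0.08 for Ddx4, -0.03 to 0.07 for Mov10l1 and -0.01 to 0.14 for Pld6. In LPS+DHEA versus LPS they ran from -0.05 to 0.1 for Piwil1, -0.83 to 0.42 for Piwil4, -0.09 to 0.06 for Ddx4, -0.04 to 0.05 for Mael and for Mov10l1, -0.06 to 0.15 for Tdrd1 and -0.02 to 0.14 for Pld6. In LPS+DHEA+Nb versus LPS+DHEA they ran from -0.11 to 0.04 for Piwil1, -0.05 to 0.01 for Piwil2, -0.22 to 1.03 for Piwil4, -0.05 to 0.09 for Ddx4, -0.05 to 0.08 for Asz1, -0.11 to 0.1 for Tdrd1 and -0.11 to 0.03 for Pld6. In LPS+DHEA+Nb versus LPS they ran from -0.08 to 0.07 for Piwil1, -0.22 to 0.67 for Piwil4, -0.01 to 0.07 for Mael, -0.06 to 0.04 for Mov10l1 and -0.06 to 0.1 for Pld6. The fold change of Piwil1 in LPS versus CTRL kept its sign, at 0.11 to 0.31.

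The count of all genes called, in the order LPS versus CTRL, LPS+DHEA versus LPS, LPS+DHEA+Nb versus LPS+DHEA, LPS+DHEA+Nb versus LPS, the 3 LPS-exposed groups versus CTRL and the test over all groups, was 78, 5, 23, 45, 55 and 63. It was 291, 35, 116, 207, 221 and 371 with DESeq2 and 140, 10, 42, 87, 95 and 155 without a filter on low counts. With only the groups compared it was 20 in LPS+DHEA versus LPS, 40 in LPS+DHEA+Nb versus LPS+DHEA and 19 in LPS+DHEA+Nb versus LPS. Without 1 library it ran from 66 to 118, 10 to 24, 16 to 64, 43 to 88, 29 to 80 and 65 to 131. The count moved by over 1.5 times in LPS versus CTRL without LPS replicate 1 (118), in LPS+DHEA versus LPS without any library, in LPS+DHEA+Nb versus LPS+DHEA without CTRL replicate 1 (36) or LPS+DHEA+Nb replicate 1 (64) or 2 (39), in LPS+DHEA+Nb versus LPS without LPS replicate 1 (74) or LPS+DHEA+Nb replicate 1 (88), in the 3 LPS-exposed groups versus CTRL without LPS+DHEA replicate 1 (29), and in the test over all groups without LPS replicate 1 (105) or LPS+DHEA+Nb replicate 1 (131) or 2 (109). The cause was not tested. With the replicate block the count was 36 in the 3 LPS-exposed groups versus CTRL and 62 in LPS versus CTRL, with 0 members called. The labels do not say that a number pairs libraries, and deviations from the group means of libraries with the same number correlated at -0.033 to 0.031, so the numbers were not taken as a pairing.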

Other observations

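The ratio of Piwil1 to Piwil2 on the TPM scale, the PIWI genes of the adult germline, was 3.18 and 2.99 in LPS+DHEA+Nb, 3.35 and 2.91 in LPS+DHEA, 3 and 2.98 in LPS, and 2.63 and 3.01 in CTRL. The value of 2.63 in CTRL replicate 1 was the lowest of the 8, and that of the other CTRL library lay within the range of the LPS-exposed libraries. Over the 8 libraries the coefficient of variation of CPM was 8.53% for Piwil1 and 36.6% for Piwil4. Tested genes under a mean of 1 CPM had a median of 50.4%.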
